A study of Rattus norvegicus with 154 samples.

Results

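The translation initiation factors (eIF) and elongation factors (eEF) are the proteins that load ribosomes onto mRNA and move them along it. All probe sets whose gene symbol in the probe gene table begins with Eif or Eef followed by a digit were taken, which gave 70 probe sets of 15923 on the array. Of these, 66 were assigned to 1 gene each, for 56 genes, and 4 to a pair of genes. A filter that left out the 30% of probe sets with the lowest mean kept 68 of the 70, and dropped the probe set of Eef1akmt4 and 1 of 4 probe sets of Eef2k.

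Lungs of rats were profiled on Affymetrix RAE230A arrays after exposure to sulfur mustard, bis-(2-chloroethyl) sulfide, an alkylating chemical warfare agent. The exposed rats received 1, 3 or 6 mg in isopropyl alcohol, the vehicle rats isopropyl alcohol with 0 mg, and further rats saline, and lungs were taken 30 min, 1 h, 3 h, 6 h or 24 h later. The labels give doses in mg without body weight, strain, sex or age, and no transgene. The 2 arrays that share a number in their titles, A and B, were taken as 2 chips of 1 animal and averaged. This gave 77 animals in 25 groups, 23 groups of 3 and 2 groups of 4 (6 mg at 30 min and at 1 h).

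In translation initiation, eIF4E binds the mRNA cap, eIF4G bridges it to the helicase eIF4A and to the multisubunit factor eIF3 on the small ribosomal subunit, and eIF2 brings the initiator tRNA. Stress slows the process in several ways, among which kinases phosphorylate the alpha subunit of eIF2, and eIF4E-binding proteins, when not phosphorylated by mTORC1, hold eIF4E away from eIF4G. During elongation eEF1 delivers aminoacyl-tRNA and eEF2 translocates the ribosome, and eEF2 kinase slows eEF2. Much of this control acts on the proteins, and mRNA levels do not measure factor activity.

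The signal is the deposited intensity, scaled by the authors so that every array had the same trimmed mean of 150. Members varied little between animals of a group, with a median SD of 0.19 on the log2 scale, against 0.22 for all probe sets tested. The paired chips correlated at 0.978 in the median animal and at 0.923 in the lowest. Array medians lay between 67.7 and 100.1, and the lowest belonged to 6 mg replicate 3 at 3 h. The values of the 3 h calls without that animal are given beside them. Lung epithelial markers were strong in every animal, with summed intensities of 18445 to 52875 over the 8 markers measured.

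At 6 mg, more translation factor probe sets rose than fell at 3 h and 6 h, and most passed no test. At 3 h, 7 of 68 member probe sets rose and 2 fell (10.3% and 2.94%), where 3.84% of all 11106 probe sets rose and 9.1% fell (limma, adjusted p under 0.05, adjusted over all probe sets; 12.9% changed in either direction). At 6 h, 13 rose and 2 fell (19.1% and 2.94%), where 7.17% of all probe sets rose and 11.1% fell (18.2% in either direction). At 24 h, 3 rose and 0 fell, where 2.71% of all probe sets rose and 4.02% fell (6.73% in either direction). In whole-tissue RNA such as this, fewer cells of a type and less RNA per cell cannot be told apart, and p-values measure only the spread between these animals. At 30 min and 1 h limma called 0 members, where 0% and 0.189% of all probe sets were called. At an unadjusted p under 0.05 stood 3 members (4.41%) at 30 min and 11 (16.2%) at 1 h, where 5.25% and 13.4% of all probe sets did.

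The median log2 fold change over the members was 0.16 at 3 h and 0.15 at 6 h, against -0.05 and -0.04 over all probe sets. With the arrays centred on their medians these medians were 0.28 and 0.25 for the members, against 0.06 and 0.06 for all probe sets. After quantile normalization the members' medians were 0.10 at 3 h and 0.11 at 6 h. The log2 fold change was above 0 for 46 of 68 members (67.6%) at 3 h and 50 (73.5%) at 6 h, against 43.6% and 45.9% of all probe sets. Without 6 mg replicate 3, 1 member, Eif4a2, was called at 3 h (adjusted p = 0.0231), where 2.57% of all probe sets were, and the 3 h median was 0.09 over the members and -0.02 over all probe sets. Without isopropyl alcohol replicate 2 there were 4 calls at 3 h. A fit on the 3 h animals alone called 2 members, both lower. The 6 h count was 7 without 6 mg replicate 2 and 8 without isopropyl alcohol replicate 2. The 24 h count was 1 without 6 mg replicate 1 or without isopropyl alcohol replicate 1. For these alternatives other than leaving out 6 mg replicate 3, the share of all probe sets called was not counted.

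**Figure D1:**
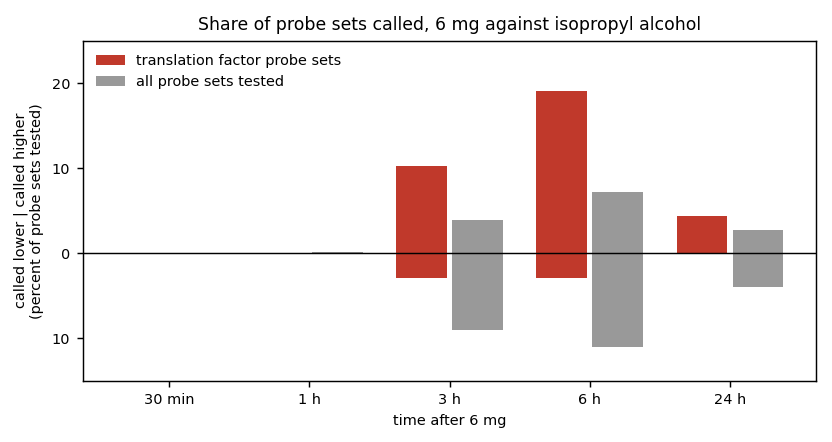
Share of probe sets called at each time after 6 mg against isopropyl alcohol, in percent of those tested, with higher calls above the zero line and lower calls below it; red bars are the 68 translation factor probe sets and grey bars all 11106. At 6 h, 19.1% of the translation factor probe sets and 7.17% of all probe sets were called higher.

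**Figure D2:**
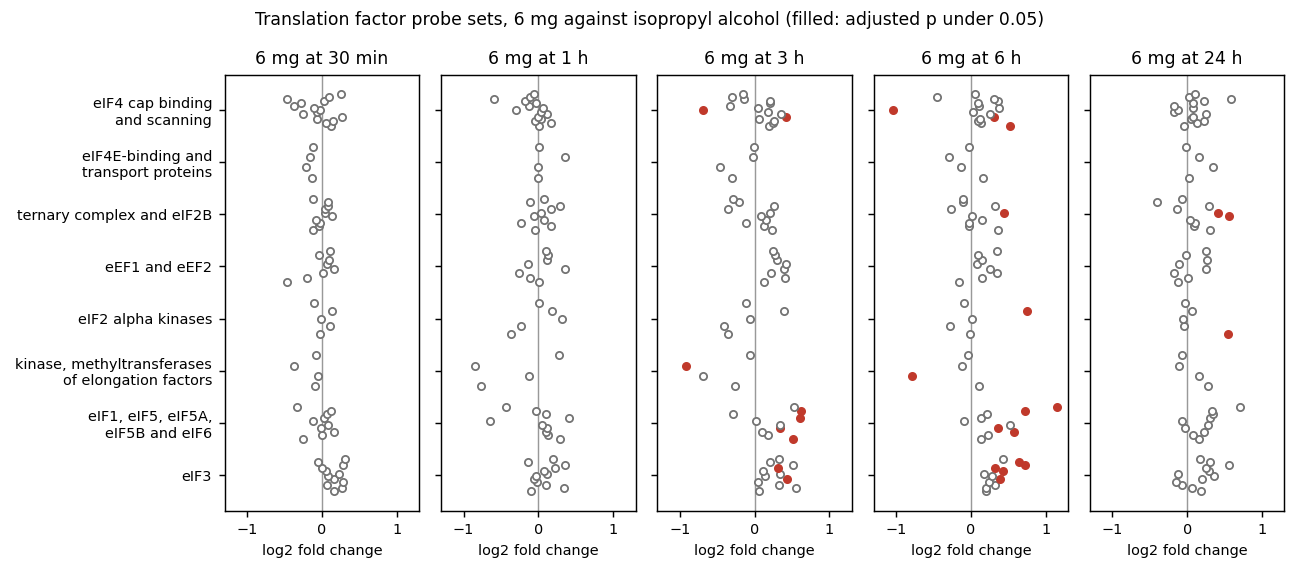
Log2 fold change of each of the 68 translation factor probe sets, 6 mg against isopropyl alcohol, by role (rows) and time (panels); filled points have an adjusted p under 0.05. All 12 eIF3 probe sets lie right of 0 at 3 h and 6 h, and the lowest point of the eIF4 row is Eif4g3, at -0.70 at 3 h and -1.04 at 6 h.

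The largest change of the cap-binding group was a fall of Eif4g3, which encodes the second eIF4G scaffold (eIF4GII). At 6 h its intensity was 90.2, 100.4 and 101.3 after 6 mg, against 214.3, 204.7 and 200.9 in isopropyl alcohol lungs. The groups were well apart, and the 6 mg mean was 2.05-fold lower (log2 fold change -1.04, 95% interval -1.35 to -0.73, limma adjusted p = 8.67e-07). At 3 h its intensity was 177.4, 155.9 and 124.3 after 6 mg, against 222.3, 279.4 and 250.2 with the vehicle (log2 fold change -0.70, limma adjusted p = 0.00121). The groups did not overlap at 3 h either, but the call was lost without 6 mg replicate 3 (log2 fold change -0.56, adjusted p = 0.0583). At 24 h the values overlapped again, at 220, 201.8 and 191.5 after 6 mg and 234.5, 260.7 and 184.7 with isopropyl alcohol.

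The 6 mg effect on Eif4g3 differed between the 5 times (limma F-test, adjusted p = 0.0019), 1 of 4 members for which it did, where 11.4% of all probe sets passed that test. Its log2 fold change was -0.03 at 30 min, came to -0.30 after 1 h, -0.70 after 3 h and -1.04 after 6 h, and stood at -0.13 after 24 h. At 6 h the intensity after 3 mg was 175.3, 152.8 and 173.7, and after 1 mg 200.1, 213.8 and 195.2. The 3 mg animals lay below every vehicle animal, although the difference did not pass the test (log2 fold change -0.30, limma adjusted p = 0.593), and the 1 mg animals overlapped with the vehicle. The 6 mg level was also below that of 3 mg at 6 h (log2 fold change -0.74, 95% interval -1.05 to -0.43, limma adjusted p = 0.00197, and 0.0807 in a fit on the 6 h animals alone). The fall at 6 h passed the test under every alternative tried, with log2 fold changes from -1.15 to -0.89. However, the 6 mg and isopropyl alcohol animals of 6 h were scanned on different days. For this and every other 6 h call, the direct contrast with isopropyl alcohol cannot tell dose and scan day apart. Replicate 3 of 1 mg, of 3 mg and of saline at 6 h was scanned on the same days as the 6 mg animals. For Eif4g3 these 1 mg and 3 mg animals had 195.2 and 173.7. The scan-day block there draws on other groups.

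**Figure D3:**
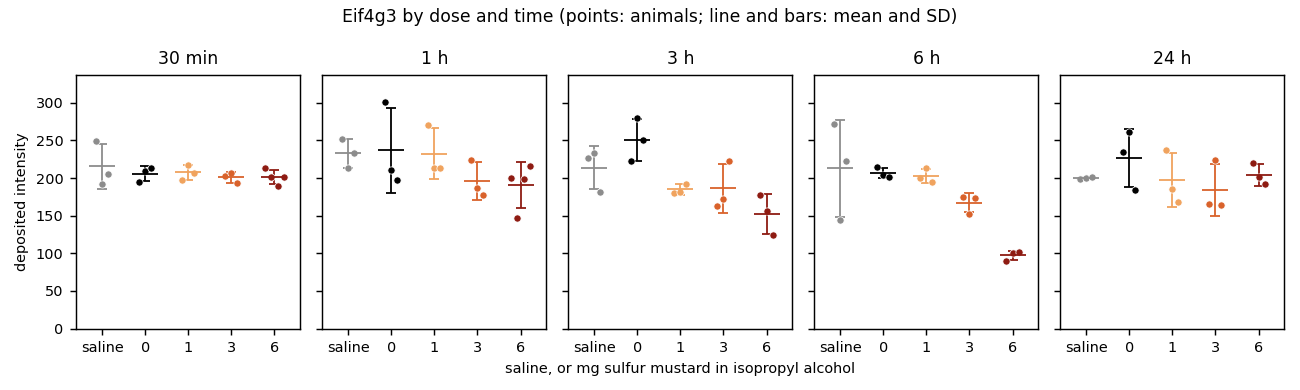
Deposited intensity of Eif4g3 (linear axis from 0) in saline lungs and after 0, 1, 3 or 6 mg in isopropyl alcohol, by time; points are animals, lines and bars the mean and SD. The 3 animals given 6 mg sit between 90.2 and 101.3 at 6 h, below every other animal of the series.

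Eif4g1, the main eIF4G scaffold, showed no such fall, with log2 fold changes of 0.20 at 3 h (95% interval -0.12 to 0.53) and 0.10 at 6 h (-0.22 to 0.42). Eif4g2, which encodes an eIF4G relative that lacks the eIF4E-binding site, had 1552.5, 2090.6 and 1546.5 at 6 h after 6 mg, against 1008.5, 961.6 and 1717.2 with isopropyl alcohol. Its groups overlapped through 1 vehicle animal, and the rise passed the test (log2 fold change 0.53, limma adjusted p = 0.0148). The second Eif4g2 probe set, 1388359_at, did not pass, at 0.36 (adjusted p = 0.102).

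Eif4a2, which encodes a form of the helicase eIF4A, had 2033.1, 1498 and 1830.9 at 3 h after 6 mg, against 1216.4, 1382.9 and 1365.8 in isopropyl alcohol lungs. All 3 treated animals were above all 3 vehicle animals, and the log2 fold change of 0.43 had a limma adjusted p of 0.00136. It rose at 6 h too (log2 fold change 0.31, adjusted p = 0.0161). The size of these rises depended on the scaling: after quantile normalization they were 0.18 and 0.16 and did not pass (adjusted p = 0.253 and 0.247). In a fit on the 3 h animals alone the adjusted p was 0.0848. Eif4a1, the other eIF4A gene, had log2 fold changes of 0.36 at 3 h and 0.25 at 6 h and did not pass. Eif4e, the cap-binding protein itself, stood at -0.15 at 3 h (95% interval -0.45 to 0.15) and 0.06 at 6 h (-0.24 to 0.36), and its second probe set at -0.34 and 0.11.

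The eIF4E-binding proteins gave no call at 6 mg, where 0%, 0.189%, 12.9%, 18.2% and 6.73% of all probe sets were called in order of time. For Eif4ebp1, the best known of them, the intensity at 6 h was 153.4, 153.3 and 150.3 after 6 mg and 164.8, 145.6 and 157.3 with isopropyl alcohol, and the interval of the log2 fold change was -0.26 to 0.20. Eif4ebp2 was at -0.29 at 6 h (-0.69 to 0.11). Eif4ebp3 was at -0.47 at 3 h, with an adjusted p of 0.126 that was 0.0128 with scan days as a block and 0.00668 with the GAPDH ratio as a covariate. The 4 probe sets of this group, which include the eIF4E transporter Eif4enif1, were all below 0 at 3 h, and 1 of 4 was above 0 at 6 h.

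All 12 probe sets of eIF3, the largest initiation factor, had a log2 fold change above 0 at 3 h (0.04 to 0.55) and at 6 h (0.17 to 0.72) after 6 mg. Of the 12, 2 rose at 3 h and 5 at 6 h, where 3.84% and 7.17% of all probe sets rose. Eif3b, a scaffold subunit, had 459, 456.7 and 425.8 at 6 h after 6 mg, against 333.7, 283.6 and 205.1 with isopropyl alcohol. Eif3a, the largest scaffold subunit, had 716.6, 772.2 and 677.6 after 6 mg, against 503.7, 412.8 and 468.5 with the vehicle. For both genes every treated animal lay above every vehicle animal, by log2 fold changes of 0.72 and 0.64 (limma adjusted p = 0.00549 and 0.00348). The Eif3b call was lost without isopropyl alcohol replicate 3 (adjusted p = 0.081).

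Eif3j, a loosely bound subunit, had 339, 405.2 and 387.8 at 6 h after 6 mg, against 267.6, 280 and 283.8 with isopropyl alcohol, again without overlap (log2 fold change 0.43, limma adjusted p = 0.00412). Eif3i rose at 3 h and 6 h by 0.44 and 0.39, and Eif3d, a subunit that can itself bind caps, by 0.32 and 0.32. The calls of Eif3i and Eif3d were the weakest of the group, with limma adjusted p between 0.0303 and 0.0488, and each was lost in 6 or more of 17 alternatives at either time. Without 6 mg replicate 3 their values at 3 h were 0.27 and 0.18 (adjusted p = 0.474 and 0.596). With scan days as a block the 6 h rise of Eif3a was 0.38 (adjusted p = 0.168), that of Eif3j 0.30 (0.135) and that of Eif3i 0.25 (0.293), none of which passed. No pair of scan days held both 6 mg and isopropyl alcohol animals at 6 h, so no within-day value could be given there. The other 7 eIF3 probe sets were at 0.17 to 0.42 at 6 h and did not pass. Among these 7 only Eif3k overlapped with the vehicle, so a lack of overlap was not particular to the called genes. The share of all probe sets without overlap was not computed.

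**Figure D4:**
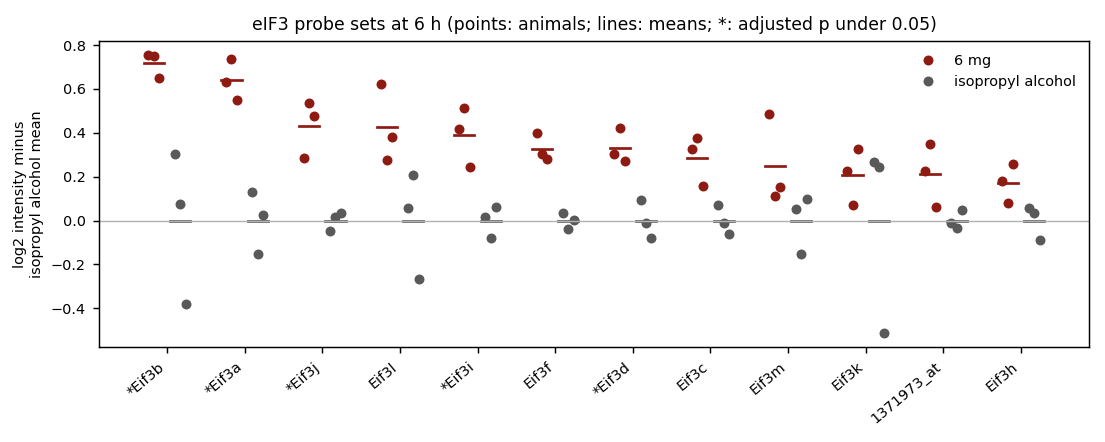
The 12 eIF3 probe sets at 6 h, as log2 of intensity plus 7 minus the isopropyl alcohol mean; points are animals (6 mg red, isopropyl alcohol grey), lines are means and * marks an adjusted p under 0.05. The 5 marked genes, Eif3b, Eif3a, Eif3j, Eif3i and Eif3d, have all 3 treated animals above all 3 vehicle animals. The same holds for every unmarked probe set except Eif3k.

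Among the probe sets with eIF1, eIF5, eIF5A, eIF5B or eIF6 symbols, 4 of 10 rose at 3 h and 4 at 6 h, and 0 fell. Of all probe sets, 3.84% rose at 3 h and 7.17% at 6 h, and 9.1% and 11.1% fell. All 4 calls at 3 h were lost without 6 mg replicate 3. Probe set 1398845_at, which the table assigns to both Eif5 and the pseudogene Eif5-ps1, had 926.3, 1340.4 and 2075.2 at 3 h after 6 mg, against 823.8, 1001.2 and 856.3 with isopropyl alcohol. At 6 h it had 1520.4, 1675.1 and 1546.1 after 6 mg, against 985.8, 777.1 and 1120 with the vehicle (log2 fold change 0.72, limma adjusted p = 0.000244). The groups overlapped at 3 h and were apart at 6 h. Without 6 mg replicate 3 the value at 3 h was 0.32 (adjusted p = 0.288) and did not pass.

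A further probe set of the same pair, 1398846_at, had 1096, 1282.5 and 1146.4 at 6 h after 6 mg, against 559.8, 480.1 and 526.5 with isopropyl alcohol. This was the largest rise of any member at 6 mg, 2.23-fold (log2 fold change 1.16, 95% interval 0.64 to 1.67, limma adjusted p = 0.000751). The third probe set of the pair, 1388206_a_at, did not follow, with a log2 fold change of -0.09 and a wide interval (-0.94 to 0.77). Signal of Eif5, which encodes a GTPase activator for eIF2, and of its pseudogene cannot be told apart by these probe sets. They lie outside the rule for named genes and were described after their values were seen. The effect differed between times for 1398846_at and 1398845_at (limma F-test, adjusted p = 0.00191 and 0.0209).

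Eif1ax, a scanning factor, had 536.1, 723.9 and 603.6 at 6 h after 6 mg, against 439.2, 394.1 and 405.4 in isopropyl alcohol lungs. The groups did not overlap (log2 fold change 0.57, limma adjusted p = 0.00157), and with scan days as a block the value was 0.40 (adjusted p = 0.0557). Eif1b, a close relative of the start-codon factor eIF1, rose by 0.34 at 3 h and 0.37 at 6 h (adjusted p = 0.0397 and 0.0187). The 3 h value without 6 mg replicate 3 was 0.24 (adjusted p = 0.44).

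Eif6, which keeps the large ribosomal subunit from joining too early and also serves in its assembly, had 576.3, 553.9 and 893 at 3 h after 6 mg, against 429.8, 384 and 480.5 with isopropyl alcohol. Its log2 fold change was 0.61 (limma adjusted p = 0.00645) with no overlap, and 0.13 at 6 h. Eif5a, the factor that carries hypusine and relieves stalled ribosomes, had 746.6, 999.6 and 1334.8 after 6 mg at 3 h, against 720.5, 599.8 and 778 with the vehicle, which overlapped (log2 fold change 0.52, adjusted p = 0.0377). In both genes 6 mg replicate 3 was the highest animal of the group, and without it the values were 0.39 and 0.31, with adjusted p of 0.278 and 0.53.

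A further group of 10 probe sets held the eIF2 and eIF2B subunits and Eif2d. Of the 10, 1 rose at 6 h (Eif2s2), 2 at 24 h (Eif2s2 and Eif2d) and 0 at 3 h, and 0 fell. Of all probe sets, 3.84% rose at 3 h, 7.17% at 6 h and 2.71% at 24 h, and 9.1%, 11.1% and 4.02% fell. Eif2s2, the beta subunit of eIF2, had 585.1, 717.2 and 667 at 6 h after 6 mg, against 473.4, 423.5 and 548.3 with isopropyl alcohol. At 24 h it had 563, 536.9 and 499.9 after 6 mg, against 400.9, 361.1 and 437.6 with the vehicle. All treated animals were above all vehicle animals at both times, with log2 fold changes of 0.44 and 0.42 (limma adjusted p = 0.00521 and 0.0186). Eif2s1, the alpha subunit that stress kinases phosphorylate, had 313.5, 386.9 and 313.6 at 6 h after 6 mg and 297.4, 240.2 and 243.8 with isopropyl alcohol. These groups did not overlap either, but the log2 fold change of 0.37 stood at an adjusted p of 0.0526, and at 0.0466 in the fit on all arrays. Eif2b1 to Eif2b5, which encode the exchange factor that reloads eIF2 with GTP, gave 0 calls at any 6 mg time.

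Eif2d, a factor that can place tRNA on the ribosome without eIF2 and takes part in recycling, changed late. At 24 h its intensity was 178.3, 170.8 and 142.8 after 6 mg, against 114.2, 99.8 and 112.1 with isopropyl alcohol. The groups did not overlap and the rise of 0.56 (95% interval 0.30 to 0.82, limma adjusted p = 0.0028) passed the test under every alternative tried. The 3 mg animals had 162.2, 143 and 128.6 and the 1 mg animals 139.1, 132.6 and 127.4 at 24 h, all above every vehicle animal, although neither difference passed (log2 fold changes 0.39 and 0.28, adjusted p = 0.324 and 0.795). At 6 h the 6 mg value was 0.01, and the difference between times did not pass (adjusted p = 0.0768).

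At 24 h the lungs given 6 mg also held less signal of lymphocyte markers: 7 of 7 T and NK cell markers were lower, with summed intensities of 214 to 290 after 6 mg and 719 to 765 with isopropyl alcohol. Both B cell markers measured were lower, with sums of 1883 to 1915 after 6 mg and 2816 to 3087 with the vehicle. Of 3 endothelial markers 2 were lower, Kdr and Vwf (log2 fold change -0.69 each, limma adjusted p = 0.00448 and 0.0226), with sums of 2123 to 2387 after 6 mg and 2939 to 4036 with the vehicle. Of 8 lung epithelial markers 1 was lower and the sums overlapped, where 4.02% of all probe sets were lower at 24 h. The part of these cells in the 24 h values of Eif2d, Eif2s2 and Eif2ak3 was not tested.

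At 6 h, 1 of 3 endothelial markers was lower after 6 mg, Kdr (log2 fold change -0.82, limma adjusted p = 0.000211), with sums of 1742 to 2450 after 6 mg and 2148 to 3065 with isopropyl alcohol. Of the T and NK cell markers 1 of 7 was lower, Cd3d, with sums of 467 to 585 after 6 mg and 659 to 842 with the vehicle. Of the B cell markers 1 of 2 was lower, Cd79b. The sum of the 2 markers did not follow that fall, at 3103 to 3732 after 6 mg and 2762 to 3117 with the vehicle. Beside these counts of called markers, 11.1% of all probe sets were lower at 6 h. The lung epithelial sums were 25583 to 37287 after 6 mg and 24989 to 26577 with the vehicle. Their part in the 6 h results was not tested.

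Eif2ak3, which encodes PERK, the kinase that answers to unfolded protein in the endoplasmic reticulum, had 128.4, 123.5 and 138.2 at 24 h after 6 mg, against 66.3, 96.8 and 109.1 with isopropyl alcohol. The groups were apart (log2 fold change 0.55, limma adjusted p = 0.0215). At 3 h it had 117.6, 83.7 and 58 after 6 mg, against 101.6, 123.9 and 102.2 with the vehicle, a log2 fold change of -0.36 that did not pass (adjusted p = 0.133). The effect differed between times (limma F-test, adjusted p = 0.0106), which was lost on chip A alone (0.208).

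Eif2ak4, which encodes GCN2, the kinase that answers to amino acid shortage, was called in the trend over dose at 3 h and in no 6 mg contrast. Its slope was -0.09 log2 units per mg (limma adjusted p = 0.00835), and -0.07 (adjusted p = 0.251) without 6 mg replicate 3. The mean intensity was not stepwise over dose, at 97 ± 5.07 with isopropyl alcohol, 121.4 ± 17.2 after 1 mg, 95.8 ± 9.37 after 3 mg and 73.1 ± 13.2 after 6 mg (SD, n = 3 each). Its 1 mg value was 0.28 (adjusted p = 0.617), its 3 mg value -0.02 (0.993), and its 6 mg value at 3 h was -0.41 (95% interval -0.72 to -0.09, adjusted p = 0.0757). Eif2ak1, for the heme-regulated kinase, had log2 fold changes of -0.06, 0.02 and -0.06 at 3 h, 6 h and 24 h, and its second probe set -0.11, -0.09 and -0.03.

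Eif2ak2 encodes PKR, the kinase that answers to double-stranded RNA and whose gene is itself induced by interferon. At 6 h its intensity was 90.8, 126.7 and 112.9 after 6 mg, against 84.6, 53.2 and 51.3 with isopropyl alcohol, without overlap (log2 fold change 0.75, limma adjusted p = 0.0246). With scan days as a block this value was 0.53 (adjusted p = 0.184), and on chip B alone 0.55 (0.235).

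The strongest response of Eif2ak2 came at the lowest dose. At 24 h it had 266.7, 184.1 and 232.3 after 1 mg, against 70.7, 130.9 and 44 with isopropyl alcohol. The 3 mg animals had 66.8, 57.5 and 52.6, the 6 mg animals 85.1, 74.8 and 76.9, and the saline animals 51.2, 55.6 and 46.5. The 3 animals given 1 mg were above every other animal of the series for this gene. The rise against isopropyl alcohol was 2.87-fold (log2 fold change 1.52, 95% interval 1.03 to 2.01, limma adjusted p = 0.000116), and 0.0629 was the adjusted p in a fit on the 24 h animals alone. Compared directly, 1 mg was above 3 mg by 1.82 (adjusted p = 5.53e-07) and above 6 mg by 1.46 (adjusted p = 2.26e-05), and these 2 comparisons, chosen after seeing the data, passed under every alternative tried.

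Eif2ak2 was the 1 member of 68 (1.47%) called at 1 mg at 24 h, where 0.333% of all probe sets were called. It was likewise the only member called in 1 mg against 3 mg, where 0.675% of all probe sets were called, and in 1 mg against 6 mg, where 5.2% were. Of the 37 probe sets called at 1 mg at 24 h, 36 were higher and 1, the T cell gene Cd3g, lower. The higher ones included the interferon-induced antiviral genes Rsad2 (log2 fold change 2.85), Mx1 (2.55), Usp18 (2.04), Ifit3 (1.80) and Oas1a (1.53), named after their values were seen. The same probe sets had log2 fold changes of -0.88, -1.69, -1.05, -0.69 and 0.01 at 6 mg at 24 h. The 1 mg and 6 mg values share their vehicle animals, as do all doses of a time. Within the 1 pair of scan days that held 1 animal of each group, Eif2ak2 was higher after 1 mg by 1.00. Summed T and NK cell markers were 503 to 625 after 1 mg and 719 to 765 with isopropyl alcohol, and their part in the result was not tested.

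**Figure D5:**
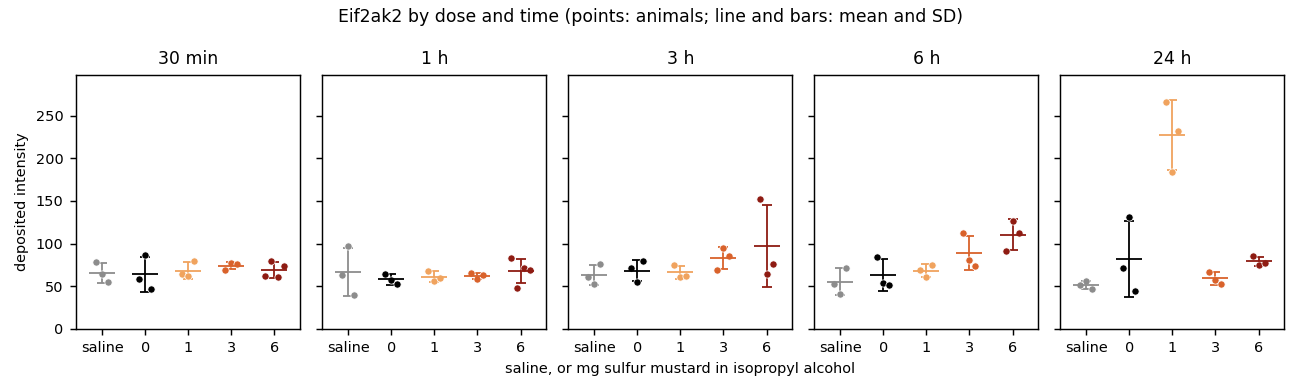
Deposited intensity of Eif2ak2 (linear axis from 0) in saline lungs and after 0, 1, 3 or 6 mg in isopropyl alcohol, by time; points are animals, lines and bars the mean and SD. The 3 animals given 1 mg sit between 184.1 and 266.7 at 24 h, above every other animal of the series.

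The promoter of Eif2ak2 is printed because the gene changed with the interferon-induced genes above. The window, from 250 bases before to 50 after the RefSeq start of the gene, lies on the plus strand at chr6:21940904-21941203 of GRCr8. Capitals mark the single match, on either strand, to the core of the interferon-stimulated response element, searched as GAAA, any 2 bases, then GAAA, 16 to 7 bases before the start.
Eif2ak2: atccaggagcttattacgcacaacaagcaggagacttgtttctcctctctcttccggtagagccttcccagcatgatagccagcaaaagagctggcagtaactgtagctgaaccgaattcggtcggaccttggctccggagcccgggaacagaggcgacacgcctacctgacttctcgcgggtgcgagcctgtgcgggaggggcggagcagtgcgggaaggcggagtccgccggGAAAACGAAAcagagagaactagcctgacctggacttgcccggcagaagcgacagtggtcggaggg
In the shares that follow, each window counted once, and a member gene counted once if any of its windows matched. The response element core was present in 3.92% of the 33469 promoter windows of the table. It was present in 4 of the 51 member genes with a window (7.84%), the others being Eif2s3, Eif3k and Eif6. The log2 fold changes of these others at 1 mg at 24 h were -0.33, 0.24 and 0.03, and none passed.

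The 8 probe sets with eEF1 or eEF2 symbols gave 0 calls at any 6 mg time. They were grouped by symbol and not by function, and include Eef1e1. In order of time, 0%, 0.189%, 12.9%, 18.2% and 6.73% of all probe sets were called. The log2 fold changes of these 8 were all above 0 at 3 h (0.12 to 0.42) and lay between -0.16 and 0.35 at 6 h. Eef1a1, which delivers aminoacyl-tRNA, had 7086.5, 4097.6 and 5714.5 at 3 h after 6 mg, against 4434.7, 4038.1 and 3790.9 with isopropyl alcohol. Its log2 fold change of 0.42 had a limma adjusted p of 0.144, and its second probe set was at 0.22. Eef2 had 1975.7, 1597.6 and 1963.9 after 6 mg at 3 h and 1725.5, 893 and 1706.1 with the vehicle (log2 fold change 0.41, adjusted p = 0.145). In both genes the groups overlapped, and the 95% intervals were 0.04 to 0.79 for Eef1a1 and 0.04 to 0.78 for Eef2. Eef1b2, of the exchange factor for eEF1A, was called in the trend over dose at 6 h, at 0.06 log2 units per mg (adjusted p = 0.0417), and is named after its value was seen.

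Eef1a2, the eEF1A of heart, muscle and neurons, was not called in any comparison. Its highest intensity, 139, belonged to isopropyl alcohol replicate 3 at 30 min, which also had the highest summed intensity of the 11 heart and muscle markers, 3384.7. What part heart tissue has in that value was not tested.

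The kinase that inactivates eEF2, Eef2k, was tested with 3 probe sets, and 1 of the 3 fell at 3 h and another at 6 h. Of all probe sets, 9.1% fell at 3 h and 11.1% at 6 h. Probe set 1389999_at had 29.3, 67.8 and 27.4 at 3 h after 6 mg, against 62.7, 79.7 and 96.7 with isopropyl alcohol (log2 fold change -0.91, limma adjusted p = 0.00499). The groups overlapped, and without 6 mg replicate 3 the value was -0.71 (adjusted p = 0.15). At 6 h this probe set was at -0.12 (adjusted p = 0.783). Probe set 1387658_at had 46, 34.8 and 35 at 6 h after 6 mg, against 63.8, 72.9 and 76.8 with the vehicle (log2 fold change -0.78, adjusted p = 0.0164). Its groups were apart at 6 h, and also at 3 h, where the log2 fold change of -0.68 missed the threshold (adjusted p = 0.0501). Probe set 1369638_at, the brightest of the gene, had log2 fold changes of -0.26 at 3 h and 0.10 at 6 h with wide intervals (-0.98 to 0.45 and -0.61 to 0.82) and did not pass. The differences between the probe sets were not tested. The first 2 probe sets lie outside the rule for named genes and were named after their values were seen.

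Nearly all calls came at 6 mg. At 3 mg limma called 0 members at any of the 5 times, where 0%, 0%, 0%, 1.68% and 0.504% of all probe sets were called. In order of time, 1, 2, 1, 1 and 2 members at 3 mg had an unadjusted p under 0.05 (1.47%, 2.94%, 1.47%, 1.47% and 2.94%), where 1.31%, 3.27%, 4.57%, 9.12% and 5.57% of all probe sets had. At 1 mg it called 0 at the first 4 times, where 0%, 0%, 0.018% and 0.009% of all probe sets were called. At those times 1, 3, 7 and 2 members had an unadjusted p under 0.05 (1.47%, 4.41%, 10.3% and 2.94%), where 1.03%, 3.62%, 8.81% and 4.11% of all probe sets had. The linear trend over 0, 1, 3 and 6 mg called 9 members at 3 h, 15 at 6 h and 4 at 24 h, where 12.1%, 20.4% and 8.11% of all probe sets passed. At 30 min and 1 h the trend called 0 members, where 0% and 0.477% of all probe sets passed. Unadjusted, 3 and 10 members (4.41% and 14.7%) had a trend p under 0.05, where 5.98% and 14.6% of all probe sets had. Without 6 mg replicate 3 the trend at 3 h called 1 member, Eif4a2, where 2.13% of all probe sets passed.

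Each slope is given in log2 units per mg. For Eif4g3 the slope was -0.18 at 6 h (limma adjusted p = 5.52e-08) and -0.10 at 3 h (-0.07 with an adjusted p of 0.154 without 6 mg replicate 3). For Eif3j it was 0.08 at 6 h (adjusted p = 0.000535), and for Eif1ax 0.09 (0.000885). For Eif4a2 it was 0.08 at 3 h (adjusted p = 0.000159, and 0.00747 without 6 mg replicate 3) and 0.06 at 6 h. At 24 h the named slopes were those of Eif2d (0.08, adjusted p = 0.00341), Eif2ak3 (0.09, 0.0126) and Eif3c, a core eIF3 subunit (0.06, 0.0358).

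Set against 3 mg directly, comparisons added after seeing the data, 6 mg gave 2 rises and 1 fall among the members at 3 h, 4 rises and 1 fall at 6 h and 0 calls at 24 h, where 4.54%, 4.31% and 1.1% of all probe sets were called. At 24 h 7 members (10.3%) had an unadjusted p under 0.05, where 9.59% of all probe sets had. The members were Eif4a2 (log2 fold change 0.40), 1398845_at (0.51) and the Eef2k probe set 1389999_at (-0.87) at 3 h. At 6 h they were Eif4g3 (-0.74), 1398845_at (0.60), 1398846_at (0.85), Eif1ax (0.45) and Eif2s2 (0.43). The 6 h animals alone gave 0 calls in this comparison, and calls over all probe sets were not counted there. Without 6 mg replicate 3 the 3 h calls were lost for all 3 probe sets (limma adjusted p = 0.108, 0.917 and 0.474), where 0.477% of all probe sets were called.

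The vehicle itself was not followed by a change that passed. Isopropyl alcohol against saline gave 0 member calls by limma at any of the 5 times, where 0.027%, 0%, 0.009%, 0.018% and 0% of all probe sets were called. In order of time, 1, 0, 3, 7 and 0 members had an unadjusted p under 0.05 (1.47%, 0%, 4.41%, 10.3% and 0%), where 2.03%, 1.7%, 5.32%, 11.5% and 2.85% of all probe sets had. The member medians were -0.03, -0.07, -0.01, 0.08 and -0.06. At 1 h, 17 of 68 members (25%) lay above 0, where 54% of all probe sets did, and at 6 h 43 (63.2%), where 50.8% did.

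Signalling genes upstream of the factors were listed apart from the family. Of 18 measured genes of mTORC1 and MNK signalling, 0 rose after 6 mg. At 3 h 3 fell, at 6 h 4 and at 24 h 0. Of all probe sets, 9.1% fell at 3 h, 11.1% at 6 h and 4.02% at 24 h, and 3.84%, 7.17% and 2.71% rose. The mTOR kinase gene Mtor averaged 109.9 ± 9.52 after 6 mg and 170.6 ± 8.41 with isopropyl alcohol at 3 h (SD, n = 3 each; log2 fold change -0.61, limma adjusted p = 5.93e-05). Rptor, the scaffold of mTORC1, averaged 52.6 ± 14.6 after 6 mg and 136.9 ± 19 with the vehicle at 6 h (log2 fold change -1.32, adjusted p = 5.03e-08), and was lower after 3 mg as well (-0.69, adjusted p = 0.0212). Deptor, an inhibitor within the complex, had log2 fold changes of -0.81 at 3 h and -0.75 at 6 h, and Tsc1, an upstream brake, -0.47 at 3 h. Mknk1, an eIF4E kinase, was at -0.39 at 6 h. Without 6 mg replicate 3, Mtor (-0.55) and Deptor (-0.59) still passed at 3 h (adjusted p = 0.00396 and 0.02), and Tsc1 did not (-0.29, 0.419). The list holds activators and inhibitors of the pathway, and its median was -0.17 at 3 h and 0.01 at 6 h, against -0.05 and -0.04 over all probe sets.

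Of 13 measured genes around eIF2 phosphorylation, 5 rose and 1 fell at 3 h after 6 mg. At 6 h 4 rose, and at 24 h 0 changed. Of all probe sets, 3.84% rose and 9.1% fell at 3 h, and 7.17% rose and 11.1% fell at 6 h. At 24 h 6.73% of all probe sets changed. Ppp1r15a, a stress-induced subunit of the phosphatase that removes the phosphate from eIF2 alpha, was already higher at 1 h (log2 fold change 0.98, limma adjusted p = 0.0213). The 6 mg and isopropyl alcohol animals of 1 h were scanned on different days, so dose and scan day are not separated in that contrast. At 3 h Ppp1r15a averaged 847.3 ± 508 after 6 mg and 182.4 ± 41.4 with isopropyl alcohol (SD, n = 3 each). Atf4, the transcription factor translated when eIF2 is phosphorylated, rose by 1.07 at 3 h and 0.50 at 6 h. Its target genes Ddit3 and Trib3 rose by 1.07 and 0.89 at 3 h, and Ppp1r15b, the constitutive phosphatase subunit, by 0.40 at 3 h and 0.47 at 6 h. Impact, an inhibitor of GCN2, rose by 0.68 at 6 h. The adaptor Nck1 fell at 3 h by 0.57 (adjusted p = 0.031), and is named after its value was seen, as is Ppp1r15b at 3 h. Without 6 mg replicate 3, Ppp1r15a (1.59), Atf4 (0.80) and Ddit3 (0.97) still passed at 3 h (adjusted p = 4.23e-07, 0.000286 and 0.00621). Trib3 (0.68), Ppp1r15b (0.34) and Nck1 (-0.14) then did not (0.177, 0.128 and 0.821). The list's median was 0.37 at 3 h and 0.30 at 6 h.

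Of 14 measured partners in poly(A) binding, termination, recycling and hypusine formation, 1 rose at 3 h after 6 mg. At 6 h 4 rose and at 24 h 1, and 0 fell. Of all probe sets, 3.84% rose at 3 h, 7.17% at 6 h and 2.71% at 24 h, and 9.1%, 11.1% and 4.02% fell. Ddx3x, an RNA helicase that assists scanning, averaged 2428 ± 127 at 6 h after 6 mg and 1401 ± 250 with isopropyl alcohol (SD, n = 3 each; log2 fold change 0.80, limma adjusted p = 0.000346). Fmr1 rose by 0.85, Etf1, the release factor eRF1, by 0.51, and Abcf1, which binds eIF2, by 0.43 at 6 h and 0.46 at 3 h (0.33 with an adjusted p of 0.299 at 3 h without 6 mg replicate 3). Paip2b, an inhibitor of poly(A)-binding protein, rose by 0.32 at 24 h. The 4 measured mitochondrial translation factors gave 0 calls at any 6 mg time by limma, with a median of -0.09 at 6 h. In order of time, 0%, 0.189%, 12.9%, 18.2% and 6.73% of all probe sets were called.

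RNA integrity was read from the 3' to 5' signal of control probe sets. At 6 h the log2 ratio for beta-actin was 1.64 ± 0.27 after 6 mg and 0.73 ± 0.30 with isopropyl alcohol (SD, n = 3 each; exact permutation test, two-sided, p = 0.1, the smallest possible here). The ratio for GAPDH was 0.94 ± 0.24 after 6 mg and 0.61 ± 0.52 with isopropyl alcohol (same exact permutation test, p = 0.5). At 3 h the beta-actin ratio was 1.01 ± 0.31 after 6 mg and 0.85 ± 0.09 with isopropyl alcohol, and at 24 h 1.45 ± 0.58 after 6 mg and 0.85 ± 0.28 with the vehicle (exact permutation tests, p = 0.5 and 0.2). The GAPDH ratio was 1.04 ± 0.17 after 6 mg and 0.71 ± 0.22 with the vehicle at 3 h, and 1.22 ± 0.36 after 6 mg and 0.75 ± 0.41 with the vehicle at 24 h (exact permutation tests, p = 0.2 and 0.3). The 6 mg mean was the higher for both ratios at each of the 5 times. With the GAPDH ratio as a covariate 17 members were called at 6 h, and calls over all probe sets were not counted. The beta-actin ratio, in which the groups were apart at 6 h, was not used as a covariate. That count therefore does not address the beta-actin difference, and the part of RNA integrity in single genes was not tested further.

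The promoters of 3 more genes that rose are shown for motifs of regulators named above or known for ribosome-related genes. Of the 56 member genes, 51 had a window in the RefSeq table. Eif2s2 lies on the minus strand at chr3:163855521-163855820, Eif3a on the minus strand at chr1:269918976-269919275 and Eif3b on the minus strand at chr12:19334719-19335018 of GRCr8, each printed 5' to 3' along the gene. Capitals mark TGATGNAA, the element bound by ATF4 with C/EBP proteins, in Eif2s2, and CACGTG, the E-box bound by MYC and other factors, in Eif3a and Eif3b, both searched on either strand.
Eif2s2: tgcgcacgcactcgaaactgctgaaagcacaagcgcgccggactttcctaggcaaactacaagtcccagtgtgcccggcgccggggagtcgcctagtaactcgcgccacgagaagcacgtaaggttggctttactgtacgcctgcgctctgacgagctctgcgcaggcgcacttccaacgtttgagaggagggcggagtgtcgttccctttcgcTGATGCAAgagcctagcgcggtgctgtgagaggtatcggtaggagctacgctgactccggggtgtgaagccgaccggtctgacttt
Eif3a: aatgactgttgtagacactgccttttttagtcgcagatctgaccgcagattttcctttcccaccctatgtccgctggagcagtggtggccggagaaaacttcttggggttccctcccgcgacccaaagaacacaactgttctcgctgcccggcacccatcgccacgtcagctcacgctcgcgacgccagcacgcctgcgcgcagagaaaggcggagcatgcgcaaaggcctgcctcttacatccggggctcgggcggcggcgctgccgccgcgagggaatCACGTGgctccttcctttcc
Eif3b: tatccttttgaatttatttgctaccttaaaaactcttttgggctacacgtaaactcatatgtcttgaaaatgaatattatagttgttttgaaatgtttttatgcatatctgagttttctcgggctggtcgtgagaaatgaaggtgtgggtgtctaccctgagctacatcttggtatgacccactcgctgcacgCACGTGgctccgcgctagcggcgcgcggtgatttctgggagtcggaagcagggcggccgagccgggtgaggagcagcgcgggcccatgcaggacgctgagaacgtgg
TGATGNAA was present in 3.98% of all windows and in 1 of 51 member genes, Eif2s2. CACGTG was present in 6.42% of all windows and in 11 of 51 member genes (21.6%). Windows were counted singly, but a member gene once if any of its windows matched, and 3 member genes had 2 windows. Among the genes called at 6 h after 6 mg, 3 of 12 with a window held CACGTG (Eif3a, Eif3b and Eif1b), and among those not called 7 of 38 did. These matches describe letters in a window and were not related to binding.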

How the data were processed

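The deposited values are intensities of Affymetrix RAE230A arrays, which the authors had scaled, the deposited values show, until each array's trimmed mean was 150. The program of summarisation is not given in the sources used here. Per the labels, each animal number was run on 2 chips, A and B, which were taken as 2 arrays of 1 animal and averaged on the log2 scale, so 154 arrays gave 77 animals. The correlation of the chips is given with the results.

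From the deposited intensity, log2 of intensity plus 7 was computed, 57 control probe sets were removed, and the 30% of probe sets with the lowest mean were left out, which left 11106. A linear model with 25 group means was fitted with limma 3.58.1 in R 4.3.3, with statmod 1.5.0 for random blocks, and p-values were adjusted by Benjamini-Hochberg over all 11106 probe sets with a threshold of 0.05. Contrasts set each dose against isopropyl alcohol of its time and isopropyl alcohol against saline, with a linear trend over 0, 1, 3 and 6 mg and an F-test of the 6 mg effect between times. Comparisons between doses were added after seeing the data. Intervals are at 95%. The number of arrays limits the precision.

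A gene was represented by its brightest probe set with 1 gene. Named genes were up to 10 rises and 10 falls by log2 fold change at 6 mg, up to 4 at lower doses, up to 3 for the vehicle and the trend, the 8 with the smallest p between times, the eIF2 alpha kinases, the eIF4E-binding proteins and a few core factors, and up to 4 of each other list. The members and lists were chosen with earlier results of these data known. Promoters came from RefSeq (GRCr8), and 5 member genes without an entry (Eef1d, Eif3h, Eif4b, Eif4e3 and Eif4ebp1) were not searched. The fit was tested on simulated data. Alternatives were an offset of 32, no filter, quantile normalization, median centring, each chip alone, all arrays with the chip letter as a block, scan days as a block, the GAPDH ratio as a covariate, array weights, the groups of 1 time alone, and each animal left out. Figures were drawn with matplotlib 3.10.9 in Python 3.11.15.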

Additional observations from a re-analysis of the deposited data

Results flagged for a closer look

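Of all probe sets, 11.4% passed limma's F-test for a 6 mg effect that differed between times, and of 68 members 4 did (5.88%). These were Eif4g3 (adjusted p = 0.0019), 1398846_at (0.00191) and 1398845_at (0.0209), both assigned to Eif5 and Eif5-ps1, and Eif2ak3 (0.0106), with the values by time given above.

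In groups of 4, which were 6 mg at 30 min and at 1 h, single animals stood apart by a gap to the next animal that took up most of the group's range (Dixon's test at the 95% level), as chance brings about in 1 of 20 groups. For Eef2 at 1 h, replicate 2 was low (gap 0.8727 of the range), with 1591.6, 668.4, 1520.7 and 1645.1 after 6 mg and 1446.6, 1571.9 and 1156.5 with isopropyl alcohol. For Eif4e at 1 h, replicate 4 was low (0.8753), with 376.5, 377.2, 371.8 and 333.5 after 6 mg and 362.1, 375.5 and 396.6 with isopropyl alcohol. For Eif5a at 1 h, replicate 2 was high (0.8291), with 798.8, 986.5, 760 and 786.3 after 6 mg and 668.5, 748.2 and 615.6 with isopropyl alcohol. For Eif3d at 30 min, replicate 2 was high (0.8421), with 395.1, 521.8, 397.3 and 415.1 after 6 mg and 424.9, 409.2 and 450.2 with isopropyl alcohol.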

How the results depend on the processing

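No result changed direction past the test under any alternative. The calls of Eif4g3, 1398845_at and 1398846_at at 6 h after 6 mg and of Eif2d at 24 h passed under every alternative run for them. So did those of Eif2ak2 after 1 mg against 3 mg and 6 mg at 24 h. At 6 h the 6 mg and isopropyl alcohol animals shared no scan day, so their direct contrast does not separate dose from scan day. The scan-day block there draws on other groups, some of whose animals were scanned with the 6 mg animals. At 1 h the 6 mg and isopropyl alcohol animals shared no scan day either.

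Counts of members moved as follows, and the cause was not tested. For the counts of this section, the share of all probe sets called under the same alternative was not counted. The exception is 3 h without 6 mg replicate 3, for which it is given above. At 6 mg against isopropyl alcohol the main counts were 0 at 1 h, 9 at 3 h and 15 at 6 h, with 3 for the last time. The chip letter was taken to mark the 2 chips of an animal, so it pairs arrays and not animals. With all arrays fitted and the chip letter as a replicate block, the counts were 2 at 1 h and 6 at 24 h. Array weights gave 3 at 3 h, 28 at 6 h and 7 at 24 h. The groups of 1 time alone, a fit with fewer samples, gave 2 at 3 h and 8 at 6 h. Scan days as a block gave 9 at 6 h, chip A alone gave 1 at 24 h and chip B alone 5 at 3 h. Leaving out 1 animal gave 1 to 14 at 3 h, 7 to 15 at 6 h and 1 to 3 at 24 h.

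For the trend, the main counts by time were 0 at 1 h, 9 at 3 h and 15 at 6 h, with 4 for the last time. The replicate block gave 2 at 1 h and 7 at 24 h. Array weights gave 3 at 3 h, 26 at 6 h and 12 at 24 h. The groups of 1 time alone gave 3 at 3 h and 2 at 24 h. At 24 h, median centring gave 2, no filter 2, chip A 1 and chip B 2. Without 1 animal the trend gave 0 to 1 at 1 h, 1 to 13 at 3 h (1 without 6 mg replicate 3), 7 to 16 at 6 h (7 without 6 mg replicate 2) and 1 to 5 at 24 h.

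For 6 mg against 3 mg, the main counts were 3 at 3 h, 5 at 6 h and 0 at 24 h. At 3 h, quantile normalization, chip B, array weights and the 3 h groups alone gave 0, and the replicate block 5. At 6 h, quantile normalization gave 2, median centring 3, no filter 3, chip B 2, scan days 2, array weights 10 and the 6 h groups alone 0. Array weights gave 1 at 24 h. Without 1 animal there were 0 to 3 at 3 h and 1 to 4 at 6 h. Other counts that moved were those of 3 mg at 6 h (0, and 2 with array weights), 1 mg at 24 h (1, and 0 with the 24 h groups alone), isopropyl alcohol against saline at 6 h (0, 1 with array weights, and 0 to 1 without 1 animal), 1 mg against 6 mg (1, and 12 with array weights) and the difference between times (4, 8 with the replicate block, and 12 with array weights).

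Single probe sets were followed for named or called members and for called genes of the other lists and cell markers together. Over these, 440 alternative values lost the call and 14 gained it, while 2622 kept their side and direction. A further 111, of values that did not pass in either setting, changed sign. Groups of 3 animals limit what could be called.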
